A study of Mus musculus with 9 samples.

Results

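The smooth muscle contractile genes and the myocardin-SRF factors that control them were followed in 9 mouse hearts. The set was chosen by name and held 10 genes: the contractile genes Acta2, Tagln, Cnn1, Myh11, Smtn and Lmod1, and the transcription factor genes Myocd, Srf, Mkl1 and Mkl2. All 10 were found among the 43154 genes of the files, and all 10 were among the 13487 genes that reached 1 FPKM (a count of sequenced fragments corrected for transcript length and library size) in at least 2 hearts and were tested. All mice were C57BL/6. Transgenic mice carried a calcineurin transgene, which in the MHC-CnA line is driven by the α-MHC promoter, a promoter of cardiomyocytes, so that it is expressed in these cells. The groups were 4 wild type vehicle hearts (hearts 1 and 2 collected at postnatal day 125, hearts 3 and 4 at day 158), 3 transgenic vehicle hearts (heart 1 at day 125, hearts 2 and 3 at day 158) and 2 transgenic hearts given JIB-04 (heart 1 at day 125, heart 2 at day 158). JIB-04, an inhibitor of Jumonji histone demethylases, was dosed at 50 mg/kg. Vehicle and JIB-04 mice alike were given 3 doses weekly, with a start at the age of 4 weeks. Wild type hearts given JIB-04 were not analysed here, so the effect of the compound could be described only in transgenic hearts.

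In smooth muscle, actin and myosin filaments slide under control of calcium, and the genes of this apparatus are switched on together by serum response factor (SRF), which binds a short DNA motif called the CArG box. SRF needs a partner: myocardin in smooth and cardiac muscle, or the myocardin-related factors MRTF-A (gene Mkl1) and MRTF-B (gene Mkl2), which enter the nucleus when free actin monomers become scarce. In the adult heart these genes are known chiefly from the walls of coronary vessels, but Acta2 is also switched on in activated fibroblasts and in fetal or stressed cardiomyocytes, Myocd is also active in cardiomyocytes, and Myh11 is the member regarded as most specific for smooth muscle.

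The sequences before the transcription start are shown for the 4 members that differed between transgenic vehicle and wild type hearts, because the CArG box is the site through which SRF acts. RefSeq windows (GRCm38.p6) of 250 bases before to 50 after the start were matched for 7 of the 10 members; Tagln, Myh11 and Myocd had no match. The 250 bases before the start are printed 5′ to 3′ on the strand of the gene, with CArG boxes in capitals. The windows lie at chr19:34255374-34255623 (minus strand) for Acta2, chr17:46556163-46556412 (minus) for Srf, chr9:22099003-22099252 (plus) for Cnn1 and chr11:3539293-3539542 (minus) for Smtn.
Acta2: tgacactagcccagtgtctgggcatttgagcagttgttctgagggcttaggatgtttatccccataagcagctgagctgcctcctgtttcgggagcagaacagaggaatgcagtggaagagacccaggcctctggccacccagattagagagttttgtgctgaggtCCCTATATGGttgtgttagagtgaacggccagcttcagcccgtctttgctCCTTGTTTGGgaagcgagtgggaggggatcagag
Srf: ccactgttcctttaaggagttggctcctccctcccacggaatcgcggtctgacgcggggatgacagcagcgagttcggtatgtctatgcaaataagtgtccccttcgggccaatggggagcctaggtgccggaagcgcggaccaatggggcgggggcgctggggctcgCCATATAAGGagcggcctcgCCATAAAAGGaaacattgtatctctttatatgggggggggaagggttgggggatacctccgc
Cnn1: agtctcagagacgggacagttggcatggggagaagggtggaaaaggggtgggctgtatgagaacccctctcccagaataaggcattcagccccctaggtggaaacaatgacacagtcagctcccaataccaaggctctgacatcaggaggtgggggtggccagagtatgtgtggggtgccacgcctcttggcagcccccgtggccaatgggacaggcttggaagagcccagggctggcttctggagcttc
Smtn: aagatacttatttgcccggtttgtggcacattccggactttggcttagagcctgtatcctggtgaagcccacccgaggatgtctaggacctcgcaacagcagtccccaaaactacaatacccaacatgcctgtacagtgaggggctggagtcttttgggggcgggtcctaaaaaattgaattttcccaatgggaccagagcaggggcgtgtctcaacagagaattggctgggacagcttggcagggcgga
A full CArG box is CC, a core of 6 bases that are each A or T, and GG, and it reads as the same motif on either strand. The Srf window held 2 full boxes, which began 82 and 62 bases before the start. The Acta2 window held 2 boxes with 1 G or C in the core, 84 and 34 bases before the start. Among the other matched members, a window of Mkl1 held 1 such box, 124 bases before the start, and the windows of Cnn1, Smtn, Lmod1 and Mkl2 held neither form. Of all 32851 RefSeq mouse windows of this length, 1.63% held a full box and 9.98% held either form. These matches describe the letters of the windows only. All distances are counted from the RefSeq start. The files place Acta2 at chr19:34241090-34255336, so its start there lies downstream of the bases shown and the Acta2 boxes are farther from it. GENCODE M21 extends the gene to 34255590, into the window shown. Both place Smtn at chr11:3517523-3540612, so the Smtn window lies inside the gene and does not cover the region before its outermost start. Of the stretches of 50 bases in Acta2 transcripts, 0.326% also occur in other genes, Actg1 among them.

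The deposited values were log2 FPKM, 1 value per gene and heart. The summed FPKM of a heart ran from 580388 to 769368, and the relative depth estimated from the spacing of low values ran from 1.0 to 1.5 times that of the shallowest heart; absolute depth is unknown. Mitochondrial genes took 29.8% of the summed FPKM in transgenic vehicle heart 3 and 30.9% in JIB-04 heart 2, against 16.8% to 17.8% in the other 3 transgenic hearts and up to 26.3% in wild type hearts. Ppp3ca, which encodes the alpha isoform of calcineurin A, was used to check the labels of transgenic and wild type. Its level was 1762, 1706 and 198.7 FPKM in transgenic vehicle hearts 1, 2 and 3, 1536 and 1434 FPKM in the JIB-04 hearts, and 22.85 to 24.83 FPKM in the wild type hearts. Each heart therefore matched its label as transgenic or wild type, and transgenic vehicle heart 3 stood between the other transgenic hearts and wild type. Ppp3ca cannot check the labels of treatment or day.

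Ranked by level per transcript length, Smtn led the set in wild type hearts at 112.8 ± 13.22 FPKM (SD, n = 4), followed by Acta2 at 36.18 ± 12.79 and Srf at 24.91 ± 2.182 FPKM, whose hearts overlapped. Myocd at 12.15 ± 2.962, Tagln at 11.58 ± 1.683 and Mkl2 at 7.569 ± 1.248 FPKM came next, each overlapping its neighbour. Myh11 at 4.531 ± 1.12 FPKM, Mkl1 at 3.022 ± 0.3753, Lmod1 at 0.7927 ± 0.2106 and Cnn1 at 0.442 ± 0.1028 FPKM closed the order, with no overlap between neighbours. In both transgenic groups Acta2 stood first and Smtn second, with no overlap between them. Acta2 averaged 374.5 ± 235.9 FPKM (SD, n = 3) under vehicle and 440.1 ± 28.3 FPKM (SD, n = 2) under JIB-04. Cnn1 stood above Lmod1 there, without overlap under JIB-04 and with overlap under vehicle. The values are per gene and do not separate splice forms such as those of smoothelin and myocardin.

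**Figure D1:**
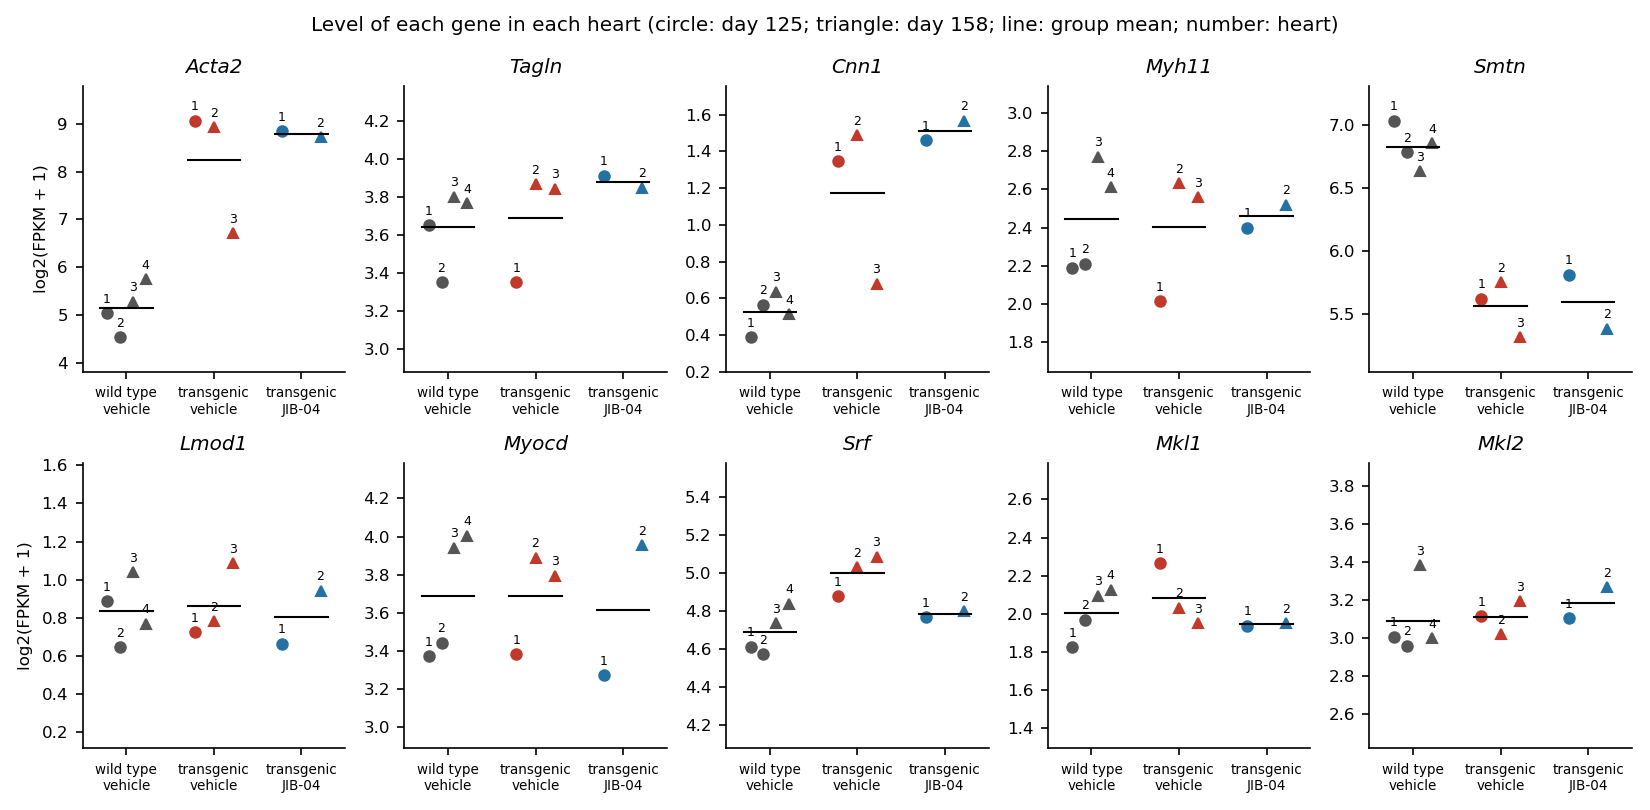
Level of each of the 10 genes in each heart, as log2(FPKM + 1) on the vertical axis, with a separate scale for each gene. Points are hearts, numbered within their group, circles are day 125, triangles are day 158, and lines are group means of 4 wild type vehicle, 3 transgenic vehicle and 2 JIB-04 hearts. The 5 transgenic hearts lie above all wild type hearts for Acta2 and Cnn1 and below them for Smtn, and transgenic vehicle heart 3 lies apart for Acta2.

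The first comparison asked what the calcineurin transgene does under vehicle. Of the 10 genes, 3 were higher and 1 was lower in transgenic vehicle hearts: the contractile genes Acta2 and Cnn1 and the factor Srf rose, and Smtn fell. Over all genes tested, 36.0% were called in this comparison (20.3% higher and 15.7% lower), so 4 called of 10 is near the background. The median log2 difference was -0.002 over the 6 contractile genes and 0.04 over the 4 factors, beside 0.05 over all genes tested. The test was limma on log2(FPKM + 1) with a term for the day, and p-values were adjusted by Benjamini-Hochberg over all 13487 genes with a threshold of 0.05.

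Acta2, which encodes smooth muscle alpha-actin, was at 534.2, 485.7 and 103.5 FPKM in transgenic vehicle hearts 1, 2 and 3, at 460.1 and 420.1 FPKM in JIB-04 hearts 1 and 2, and at 31.81, 22.23, 37.94 and 52.74 FPKM in wild type hearts 1 to 4. Every transgenic heart was above every wild type heart, as for 2 of 10 members (Acta2 and Cnn1) and 20.4% of all genes tested, and transgenic vehicle heart 3 was the lowest of the 5 transgenic hearts. The log2 difference between transgenic vehicle and wild type was 3.09 (SE 0.56, limma adjusted p = 0.0041), an 8.54-fold rise on the FPKM + 1 scale. Without transgenic vehicle heart 3 it was 3.84 (limma adjusted p = 5.1e-05). In day 158 hearts only, with 2 hearts in each vehicle group, it was 2.30 and was not called (limma adjusted p = 0.12). Bulk tissue cannot tell a change in the number of cells of a type from a change in RNA per cell, for Acta2 or any other gene here.

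Cnn1, which encodes calponin 1, an actin-binding inhibitor of the smooth muscle myosin ATPase, also passed the test. It was at 1.54, 1.805 and 0.5999 FPKM in transgenic vehicle hearts 1 to 3, at 1.749 and 1.963 FPKM under JIB-04, and at 0.3086, 0.4794, 0.5529 and 0.427 FPKM in wild type hearts 1 to 4. All transgenic hearts were above all wild type hearts, but transgenic vehicle heart 3 exceeded the highest of them only narrowly. The log2 difference was 0.65 (SE 0.20, limma adjusted p = 0.036), which understates the change of a gene below 2 FPKM; with 0.1 in place of 1 added to FPKM it was 1.28 (limma adjusted p = 0.033). Cnn1 reached 1 FPKM in 4 transgenic hearts and in 0 wild type hearts, so it was tested only through transgenic hearts, and without a filter it was not called (limma adjusted p = 0.085). The call was lost in 12 of 20 alternatives, with values of 0.49 to 1.28 and limma adjusted p of 0.0012 to 0.33; without transgenic vehicle heart 3 the difference was 0.89 (limma adjusted p = 0.0012).

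Smtn, which encodes smoothelin, an actin-binding protein of contractile smooth muscle, fell. It was at 48.18, 52.78 and 38.75 FPKM in transgenic vehicle hearts 1 to 3, at 55.06 and 40.64 FPKM under JIB-04, and at 129.9, 109.0, 98.11 and 114.4 FPKM in wild type hearts 1 to 4. All 5 transgenic hearts were below all 4 wild type hearts, as were 15.3% of all genes tested. The log2 difference was -1.23 (SE 0.13, limma adjusted p = 0.00031), a 2.34-fold difference on the FPKM + 1 scale, and it was called in all 21 alternatives, from -1.36 to -1.01. Exons of Smtn overlap those of Gm11946 and Gm11947 on the opposite strand in GENCODE M21, and a library kit that does not mark strand cannot separate their reads.

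The other 3 contractile genes did not pass the test. Myh11, the smooth muscle myosin heavy chain, was at 3.042, 5.199 and 4.889 FPKM in transgenic vehicle hearts 1 to 3 and at 3.563, 3.627, 5.826 and 5.109 FPKM in wild type hearts 1 to 4. The groups overlapped, and the log2 difference was -0.12 with a 95% interval of -0.35 to 0.12 (limma adjusted p = 0.41). Tagln, which encodes the actin-bundling protein transgelin, was at 9.218, 13.59 and 13.34 FPKM in transgenic vehicle hearts and at 9.211 to 12.93 FPKM in wild type hearts. Its log2 difference was -0.0004 (95% interval -0.27 to 0.27), and its reads may include those of Pcsk7 and Gm48529, which overlap its exons on the opposite strand. Lmod1, the smooth muscle leiomodin that nucleates actin filaments, was at 0.6518 to 1.121 FPKM in transgenic vehicle hearts and 0.5637 to 1.056 FPKM in wild type hearts, with a log2 difference of -0.003 (95% interval -0.32 to 0.31). These intervals leave room for differences of that size in either direction.

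Among the factors, Srf rose. It was at 28.43, 31.65 and 32.94 FPKM in transgenic vehicle hearts 1 to 3, at 26.25 and 26.86 FPKM under JIB-04, and at 23.49, 22.83, 25.69 and 27.62 FPKM in wild type hearts 1 to 4. The transgenic vehicle hearts were all above wild type, whereas the JIB-04 hearts lay within the wild type range. The log2 difference between transgenic vehicle and wild type was 0.28 (SE 0.07, limma adjusted p = 0.014), a 1.21-fold rise; in day 158 hearts only it was 0.27 and was not called (limma adjusted p = 0.20). With hearts scaled to equal summed FPKM, which moves the median of all genes from 0.05 to 0.24, the difference of Srf was 0.50.

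Its partners did not pass the test. Myocd, myocardin itself, was at 9.425, 13.82 and 12.88 FPKM in transgenic vehicle hearts 1 to 3 and at 9.346, 9.868, 14.36 and 15.04 FPKM in wild type hearts 1 to 4, a log2 difference of -0.09 (95% interval -0.26 to 0.07). Mkl1 was at 3.803, 3.087 and 2.866 FPKM in transgenic vehicle hearts 1 to 3 and at 2.541 to 3.365 FPKM in wild type hearts, a log2 difference of 0.08 (95% interval -0.19 to 0.34); its exons overlap those of Sgsm3 on the opposite strand. Mkl2 was at 7.112 to 8.164 FPKM in transgenic vehicle hearts and at 6.792 to 9.432 FPKM in wild type hearts, a log2 difference of 0.0008 (95% interval -0.25 to 0.25); its exons overlap those of Gm15738. MRTF-A and MRTF-B are controlled largely by where the protein is in the cell, which these values do not measure.

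**Figure D2:**
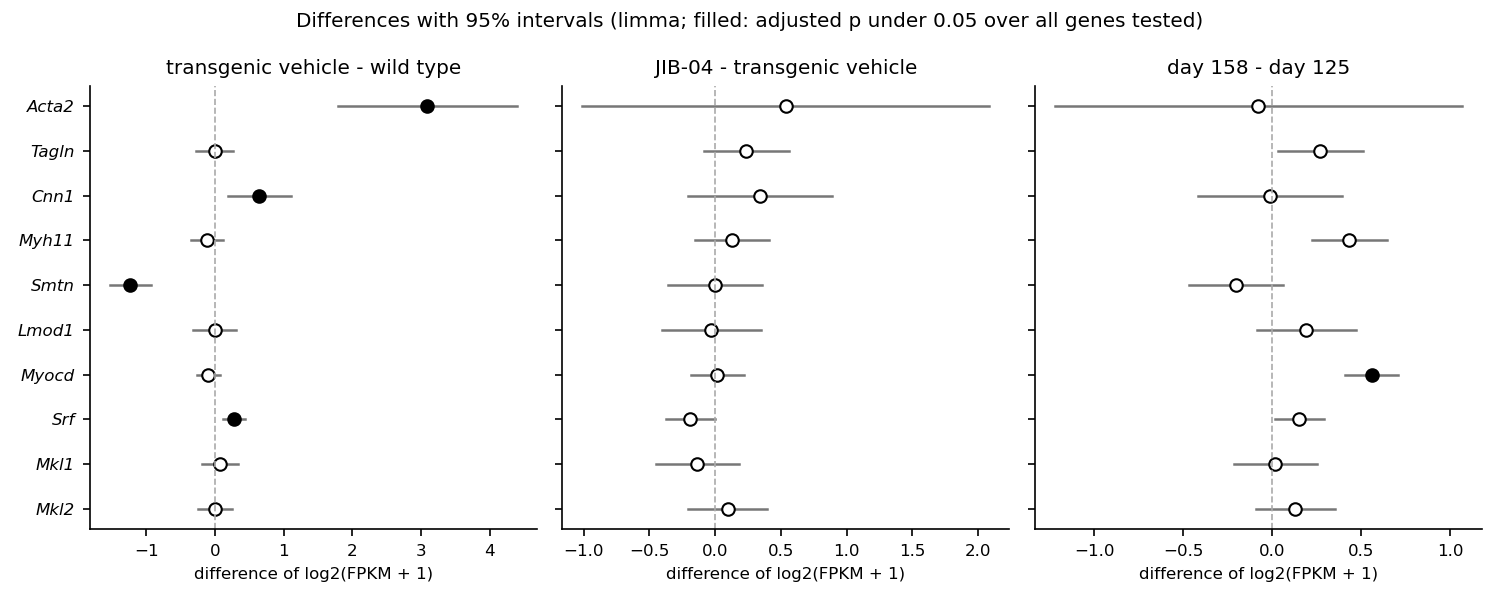
Difference of log2(FPKM + 1) for each gene (horizontal axis) in transgenic vehicle against wild type, JIB-04 against transgenic vehicle, and day 158 against day 125. Points are limma estimates from 9 hearts, lines are 95% intervals, and filled points passed an adjusted p of 0.05 over all 13487 genes. Acta2, Cnn1, Smtn and Srf are filled in the first comparison, none in the second and Myocd in the third.

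Acta2 varied within the transgenic vehicle group, and the other members were set against that pattern as a description. Heart 3 was 2.29 below the mean of hearts 1 and 2 for Acta2 on the log2 scale. Only Mkl1 of the other members kept the order heart 1 over heart 2 over heart 3, so 2 of 10 had the order of Acta2, as did 20.1% of all genes tested. Heart 3 was the lowest of the group for 4 members, Acta2, Cnn1, Smtn and Mkl1, beside 43.1% of all genes. The drop in heart 3 was 0.74 for Cnn1, 0.37 for Smtn and 0.20 for Mkl1, given as log2 differences. Heart 3 was above the mean of hearts 1 and 2 by 0.13 for Srf, 0.16 for Myocd, 0.13 for Mkl2, 0.23 for Tagln, 0.23 for Myh11 and 0.33 for Lmod1. This depended on scaling: with equal summed FPKM the difference was -0.07 for Srf, -0.03 for Myocd, -0.06 for Mkl2, 0.04 for Tagln and 0.07 for Myh11. Heart 3 was at least 1 below each of hearts 1 and 2 for 128 genes, 0.949% of those tested, and Acta2 was the only member among them. Cnn1 with 0.1 added to FPKM in place of 1 dropped by 1.34.

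Ppp3ca dropped by 3.12 in heart 3 on the same scale, and Myh6, the alpha myosin heavy chain gene whose promoter drives the transgene, dropped by 1.60. The other genes of the lists described below that were at least 1 lower in heart 3 than in each of hearts 1 and 2 were Lmod3, Col1a1, Col3a1, Lum, Myl4 and Myl7. Col3a1 dropped by 2.95 and Col1a1 by 2.04. Most tested activated fibroblast markers were lower in heart 3, and the fibroblast markers were mixed. Besides Col3a1 and Col1a1, the activated fibroblast markers Postn, Meox1, Col8a1, Fn1 and Ltbp2 were lowest of the group in heart 3. Meox1 dropped by 1.02 and Col8a1 by 0.93. Heart 3 was above the mean of hearts 1 and 2 by 1.59 for Lox, 0.70 for Comp and 0.07 for Fap. Of the fibroblast markers, Lum, Dpt and Pi16 were lowest in heart 3. Dcn was above the mean of hearts 1 and 2 by 0.83, and Gsn, Pdgfra and Tcf21 were also above it. JIB-04 heart 2, which had a mitochondrial share as high as that of heart 3, held Acta2 at 420.1 FPKM. The part of transgene level, collagen-producing cells or mitochondrial share in the low Acta2 of heart 3 was not tested.

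Likeness to Acta2 was measured as the root mean square difference of log2 profiles over the 9 hearts, each centred on its own mean. The 5 nearest genes outside the set were 2210407C18Rik at 0.45, Gm4524 at 0.50, Ptgfr (the prostaglandin F receptor) at 0.54, Sprr1a (a small proline-rich protein) at 0.55 and Tgfb2 (the ligand TGF-beta 2) at 0.55. Gm4524 (log2 level 0.313 to 0.555) and Sprr1a (0 to 0.264) were below 1 FPKM in every wild type heart. Both were thus tested only through transgenic hearts, where Acta2 is also high. Each of the 5 had its lowest transgenic level in transgenic vehicle heart 3. These genes were chosen by likeness over the same hearts, so the shared low point was largely fixed by the choice. For example, 2210407C18Rik was at a log2 level of 3.00 there against 5.95 to 6.94 in the other transgenic hearts and 2.30 to 2.74 in wild type hearts. Cnn1 was the nearest member at 1.36, and the other members stood at 1.71 for Srf to 2.35 for Smtn. The same measure for Myh11 gave Vps4b at 0.11, Zfp934 at 0.11 and Dennd2a at 0.12, with Tagln at 0.15 and Myocd at 0.16 as the nearest members. The measure grows with how much a gene varies: a profile that did not vary at all would stand at 1.79 from Acta2 and at 0.23 from Myh11. Of the other genes tested, 3.87% were as near to Acta2 as Cnn1, and 0.289% were as near to Myh11 as Tagln.

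**Figure D3:**
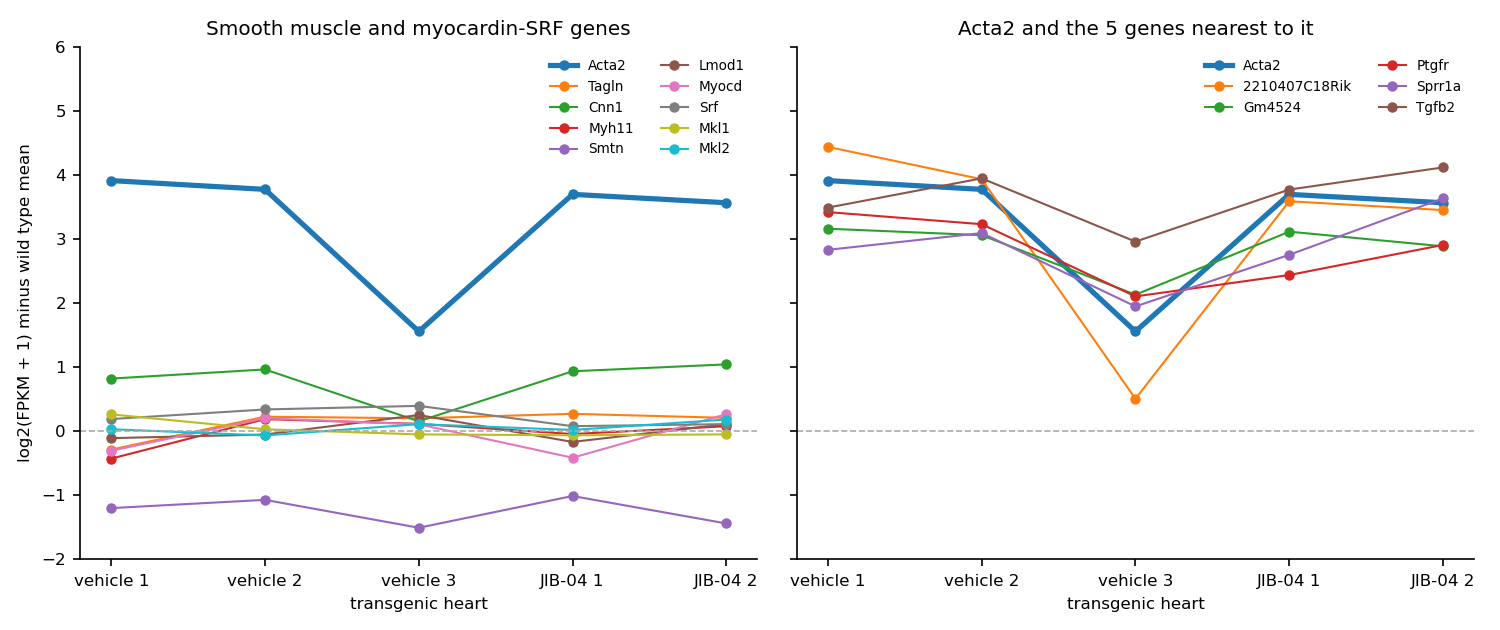
Level in each of the 5 transgenic hearts minus the mean of the 4 wild type hearts, as log2(FPKM + 1), for the 10 members (left) and for Acta2 with the 5 genes nearest to it over all 9 hearts (right). Lines join the hearts of a gene as a guide and imply no order. Acta2 stood 3.91 and 3.78 above wild type in transgenic vehicle hearts 1 and 2 and 1.56 above it in heart 3. The genes on the right share the low point at heart 3, which their choice by likeness over the same hearts largely fixed.

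The second comparison asked what JIB-04 did in transgenic hearts. None of the 10 genes was called by limma between JIB-04 and transgenic vehicle, and 1 gene (0.00741%) was called over all genes tested. At an unadjusted p under 0.05, limma gave 444 of 13487 genes, Srf among them, which is fewer than chance alone would give. Acta2 differed by 0.54 on the log2 scale with a 95% interval of -1.01 to 2.08, and the JIB-04 hearts lay between transgenic vehicle hearts 2 and 3. Without transgenic vehicle heart 3 the sign turned, to -0.21. Smtn differed by 0.00 with an interval of -0.36 to 0.36, Cnn1 by 0.34 with an interval of -0.21 to 0.89, and Tagln by 0.24 with an interval of -0.08 to 0.56. Srf was lower by 0.19 (log2 difference -0.19, 95% interval -0.37 to -0.003, limma unadjusted p = 0.047, adjusted p = 0.99). With 2 and 3 hearts these intervals allow sizeable differences, most of all for Acta2.

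Against wild type vehicle, the JIB-04 hearts had 2 members called higher and 1 lower, beside 32.3% of all genes called. Acta2 was higher by 3.63 (SE 0.63, limma adjusted p = 0.0038) and Cnn1 by 0.99 (SE 0.22, limma adjusted p = 0.012), and Smtn differed by -1.23 (SE 0.15, limma adjusted p = 0.00062). Srf differed by 0.09 (95% interval -0.08 to 0.27, limma adjusted p = 0.39). This comparison shares its wild type hearts with the first and its JIB-04 hearts with the second. In day 158 hearts only, Acta2 differed by 3.20 and was not called (limma adjusted p = 0.11).

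Day of collection differed within every group. Myocd, at 9.425, 8.667, 9.346 and 9.868 FPKM in the 4 day 125 hearts (transgenic vehicle 1, JIB-04 1, wild type 1 and 2), was at 12.88 to 15.04 FPKM in the 5 day 158 hearts. The days did not overlap, and the log2 difference was 0.56 (SE 0.06, limma adjusted p = 0.016), a 1.47-fold rise with the call lost in 9 of 17 alternatives (0.49 to 0.66, limma adjusted p up to 0.11). Myocd was the only member called by day, where 0.378% of all genes were called. Myh11 also separated the days, at 3.042 to 4.274 FPKM on day 125 and 4.74 to 5.826 FPKM on day 158, with a log2 difference of 0.43 (SE 0.09, limma adjusted p = 0.078). Non-overlapping days were seen for 2 of 10 members and for 4.60% of all genes. The labels do not say whether day also marks a batch, and day and batch cannot be told apart. No member passed the limma test of a transgenic effect that differs between days: 1 gene (0.00741%) was called over all genes, 401 had an unadjusted p under 0.05, and the difference for Acta2 was -1.98 with an interval of -4.65 to 0.70, from 1 transgenic vehicle heart at day 125.

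Genes around the members were described from fixed lists by their counts and medians in transgenic vehicle against wild type, to be read beside the 20.3% of all genes called higher and the 15.7% called lower. Of 14 tested genes of the wider smooth muscle apparatus, 7 rose and none fell, with a median log2 difference of 0.45. Csrp2, a LIM-domain protein of smooth muscle, rose by 1.51 (SE 0.18) and Myl9, a regulatory myosin light chain, by 0.95 (SE 0.14). Among 13 tested paralogs of the contractile members, 3 rose: Myh10, nonmuscle myosin heavy chain IIB, by 2.35 (SE 0.08), Lmod2, the cardiac leiomodin, by 0.83 (SE 0.09), and Cnn2, a broadly expressed calponin, by 0.72 (SE 0.09). The split of the paralogs depended on scaling: 6 rose with equal summed FPKM, and 2 fell with median-of-ratios scaling; without transgenic vehicle heart 3, 3 rose and 1 fell.

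Of 23 cytoskeletal genes known as targets of MRTF and SRF, 12 rose and none fell, with a median of 0.36, and 2 fell with median-of-ratios scaling. Ctgf, a matricellular protein, rose by 3.95 (SE 0.20), and Fhl1, a LIM-domain protein, rose with a 95% interval of 1.96 to 2.43. Of 18 regulators of SRF and smooth muscle genes, 5 rose and 5 fell (4 fell without transgenic vehicle heart 3); Abra, an actin-binding protein that promotes MRTF entry to the nucleus, rose by 2.90 (SE 0.15). Of 9 immediate early genes known as SRF targets with ternary complex factors, 2 rose and 1 fell: Junb rose by 1.09 (SE 0.12), Mcl1 rose by 0.25 (SE 0.07), and Nr4a1 differed by -1.26 (SE 0.33). Nr4a1 varied widely in wild type hearts, from 13.91 to 55.93 FPKM. In day 158 hearts only it differed by -0.70 and was not called (limma adjusted p = 0.15). The counts of the immediate early genes are near the shares over all genes. The regulators were called somewhat more often than all genes in both directions, and this was not tested.

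Of 16 genes of contraction signalling, 8 rose and 3 fell. Kcnma1, the pore of the calcium-activated potassium channel that relaxes smooth muscle, rose by 1.67 (SE 0.13) from 0.02504 to 2.319 FPKM, and Ramp1, a partner of the CGRP receptor, differed by -2.07 (SE 0.17). Kcnma1, like Comp and Ltbp2 below, reached 1 FPKM in no wild type heart and was tested through transgenic hearts, and for such low genes the value depends on the constant added to FPKM. Of 5 TGF-beta ligands and receptors, 3 rose, Tgfb3 by 3.82 (SE 0.18) and Tgfb2 by 3.44 (SE 0.22), with 2 called without transgenic vehicle heart 3. All 6 fetal and hypertrophy genes of cardiomyocytes rose, among them Tpm2, beta-tropomyosin, by 5.58 (SE 0.18) and Myh7, beta myosin heavy chain, by 4.46 (SE 0.21). No gene of any list was called between JIB-04 and transgenic vehicle. In day 158 hearts only, where fewer hearts entered, 693 of all 13043 genes tested were called higher and 524 lower. Counts of the lists in that setting are to be read beside these. There, 5 of the smooth muscle genes, 8 of the MRTF targets, 4 of the contraction signalling genes and all 6 fetal genes rose, and 2 regulators rose and 2 fell.

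**Figure D4:**
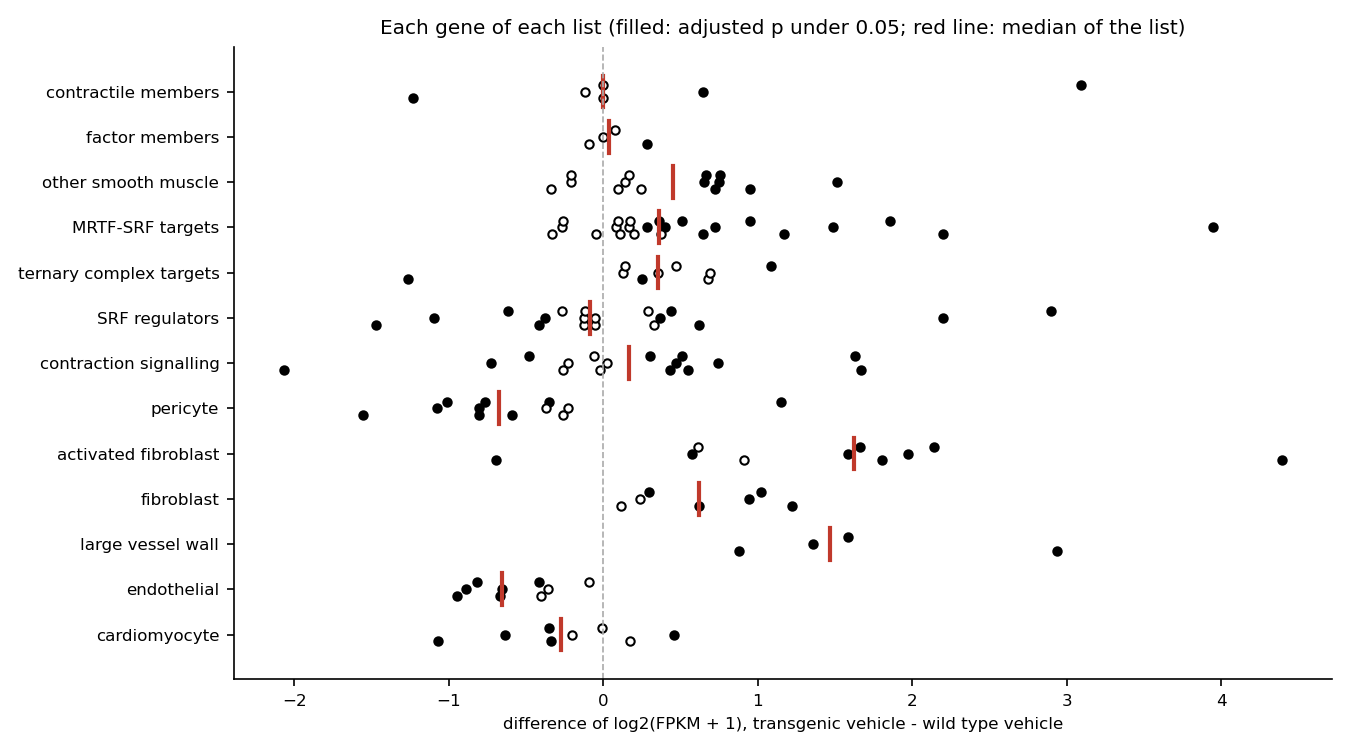
Difference of log2(FPKM + 1) between transgenic vehicle and wild type vehicle hearts (horizontal axis) for each tested gene of the lists, 1 list per line. Filled points passed an adjusted p of 0.05 (limma, 9 hearts), and red lines are medians. The 6 contractile members spread from -1.23 to 3.09 around a median of -0.002, pericyte and endothelial medians lie below 0, and activated fibroblast and large vessel medians lie above it.

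Markers of other cell types were counted in the same comparison, beside the same shares over all genes. Of 12 pericyte markers 8 fell and 1 rose, with a median of -0.68: Vtn, vitronectin, differed by -1.55 (SE 0.10), and Cspg4 rose by 1.15 (SE 0.11). Their summed level was 186.7 to 230.4 FPKM in transgenic vehicle hearts, 185.8 to 197.2 FPKM under JIB-04 and 314.1 to 356.2 FPKM in wild type hearts. Of 9 endothelial markers 6 fell, among them Tie1, differing by -0.95 (SE 0.07), and Cdh5, by -0.89 (SE 0.09), and their summed level was 251.5 to 351.2, 234.2 to 255.6 and 388.8 to 414.3 FPKM in the same order of groups. Without transgenic vehicle heart 3, 9 pericyte and 8 endothelial markers fell. In day 158 hearts only, 4 and 3 did, beside 524 of all 13043 genes called lower in that setting.

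Of 10 tested markers of activated fibroblasts 7 rose and 1 fell, led by Comp at 4.39 (SE 0.17) and Ltbp2 at 2.14 (SE 0.25), both matrix proteins. Their summed level was 145.1 to 325.1 FPKM in transgenic vehicle hearts, 290.2 to 365.4 FPKM under JIB-04 and 70.77 to 90.17 FPKM in wild type hearts. Of 7 fibroblast markers 5 rose, with Pi16 at 1.22 (SE 0.14) and Tcf21 at 1.02 (SE 0.12), and all 4 large vessel markers rose (as in day 158 hearts only), with Mfap4 at 2.94 (SE 0.16) and Eln, elastin, at 1.58 (SE 0.22). Without transgenic vehicle heart 3, 9 activated fibroblast markers rose and 1 fell. In day 158 hearts only, 2 activated fibroblast and 2 fibroblast markers rose, beside 693 of all 13043 genes called higher in that setting. Of 8 cardiomyocyte markers 4 fell and 1 rose, with 1 and 1 in day 158 hearts only, and with equal summed FPKM 1 fell and 2 rose. Tnni3, cardiac troponin I, differed by -0.64 (SE 0.08). Myh6 differed by -1.07 (SE 0.36); its transgenic vehicle hearts 1, 2 and 3 were at -0.52, -0.62 and -2.17 against the wild type mean, and without heart 3 the difference was -0.57 (limma adjusted p = 0.0016). Of the 3 atrial markers none was called by limma; Myl4 differed by 1.29 (95% interval 0.05 to 2.53), and by 1.66 without transgenic vehicle heart 3, where it was called (limma adjusted p = 0.049). None of the 4 skeletal muscle markers was high enough to be tested, with a summed level of at most 0.2257 FPKM in any heart and Myh4 at 0 to 0.1591 FPKM. The part of cell composition in the differences of Acta2, Cnn1, Smtn and Srf was not tested.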

How the data were processed

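RNA from 9 hearts was extracted with Trizol and made into non-directional mRNA libraries, per the labels' protocols. The authors deposited 1 table of log2 FPKM values per heart. The submitters' processing notes name STAR 2.7.1a, Picard, GATK 4.1.2, Cufflinks 2.2.1 and GRCm38, without roles; the annotation release is not given in the sources used here. The constant added before the log is not stated; the lowest value is 0 in each heart, as adding 1 gives, so values were read as log2(FPKM + 1). Without deposited counts no count test was run. Genes that reached 1 FPKM in 2 hearts or more were fitted with limma 3.58.1 (R 4.3.3, trend) as group means plus day, 5 residual degrees of freedom. The day-dependent effect came from means of 6 group and day combinations. limma was tested on simulated data. Members, lists and tests were chosen with earlier results of these data known. Named were all members, the 2 called genes of each list with the largest change, and the genes nearest to Acta2 and Myh11. Mcl1, Cnn2 and the list genes given for a drop or rise in heart 3 were added after their values were seen. Alternatives changed the constant, filter, scaling, day term, hearts in the fit and each heart in turn; those of the list counts and list genes were chosen after seeing the data. The series text gives dosing to day 158, whereas 4 hearts are labelled day 125.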

Additional observations from a re-analysis of the deposited data

Results flagged for a closer look

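Mkl2 in the wild type group had 1 heart far from the others: heart 3 was at a log2 level of 3.383, and its gap to the nearest heart was 0.888 of the range of the group, above the critical value for 4 hearts. Chance alone flags about 1 in 20 groups, and only the 4 wild type hearts formed a group large enough for this check.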

How the results depend on the processing

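Smtn was called in transgenic vehicle against wild type under all 21 alternatives run, and Acta2 and Srf under 20, with day 158 hearts only as the exception. Cnn1 lost its call in 12 of 20, among them when any heart other than transgenic vehicle heart 3 was left out. In JIB-04 against wild type, Cnn1 lost its call in day 158 hearts and without either JIB-04 heart. Hearts were not paired by replicate number in the reported fit. Same-numbered hearts can differ in day: heart 2 is day 158 in transgenic vehicle and day 125 in wild type. Deviations from the group mean of same-numbered transgenic vehicle and wild type hearts correlated at 0.084, 0.019 and 0.178. The values were 0.432 and -0.072 for transgenic vehicle and JIB-04 hearts, and 0.184 and -0.186 for JIB-04 and wild type hearts. The 2 JIB-04 hearts deviate from their mean by equal and opposite amounts, so their values cannot show whether pairing is absent. With the replicate block in place of the day term, 2205 genes were higher and 1874 lower in transgenic vehicle hearts, and Cnn1 was at 0.64 (limma adjusted p = 0.063). Equal summed FPKM gave 4504 higher and 1006 lower, and median-of-ratios scaling 2350 and 2519, against 2739 and 2123 as reported. Lmod1, near 1 FPKM, was not tested under every filter or set of hearts. Precision is limited by 2 to 4 hearts a group and, for Cnn1 and Lmod1, by low levels.

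Of 836 alternative values of single members, 87 had another sign than the reported value, and none of these was called under the alternative. These, and the counts that moved, follow as log2 differences or numbers of genes, with the reported value in brackets. The causes were not tested, except that day 158 hearts and left-out hearts mean fewer samples. In transgenic vehicle against wild type, the number of members higher, 3 as reported, was 0 in day 158 hearts. The number of genes called in all, 4862 as reported, was 1217 in day 158 hearts. Tagln (-0.0004) was 0.2053 with equal summed FPKM, 0.0202 scaled without mitochondrial and top genes, 0.0446 without the day term, 0.086 with the replicate block, 0.071 in day 158 hearts and -0.0523 to 0.1284 with single hearts left out. Myh11 (-0.116) was 0.0634 with equal summed FPKM and 0.0113 with the replicate block. Lmod1 (-0.0035) was 0.0047 scaled without mitochondrial and top genes, 0.0286 without the day term, 0.0063 with the replicate block, 0.0008 with only the groups compared, 0.029 in day 158 hearts and -0.0775 to 0.0698 with single hearts left out. Myocd (-0.0941) was 0.1115 with equal summed FPKM and 0.104 with the replicate block. Mkl1 (0.076) was -0.119 in day 158 hearts and -0.0857 to 0.1445 with single hearts left out. Mkl2 (0.0008) was -0.0451 with median-of-ratios scaling, -0.007 with the replicate block, -0.0835 in day 158 hearts, -0.02 without transgenic vehicle heart 3 and JIB-04 heart 2 and -0.0763 to 0.1052 with single hearts left out. Between JIB-04 and transgenic vehicle, the number of genes called in all, 1 as reported, was 0 with 0.1 added, 6 without a filter, 0 with a filter of 5 FPKM, 0 in day 158 hearts, 0 without transgenic vehicle heart 3 and JIB-04 heart 2 and 0 to 3 with single hearts left out. Tagln (0.2381) was -0.0055 in day 158 hearts. Myh11 (0.1305) was -0.074 in day 158 hearts and -0.0562 to 0.3484 with single hearts left out. Smtn (0.00) was -0.0586 with equal summed FPKM, -0.074 with the replicate block, -0.0053 with only the groups compared, -0.151 in day 158 hearts and -0.1357 to 0.1584 with single hearts left out. Lmod1 (-0.0273) was 0.0418 with the replicate block, 0.01 in day 158 hearts and -0.1005 to 0.0241 with single hearts left out. Myocd (0.0176) was -0.0384 with equal summed FPKM, -0.0757 without the day term, -0.0893 without transgenic vehicle heart 3 and JIB-04 heart 2 and -0.0666 to 0.0898 with single hearts left out. Acta2 (0.5379) was -0.212 to 1.1875 with single hearts left out. Mkl1 (-0.135) was -0.2035 to 0.0267 with single hearts left out. In JIB-04 against wild type, the number of members higher, 2 as reported, was 1 with a filter of 5 FPKM, 0 in day 158 hearts and 1 to 2 with single hearts left out. The number of genes called in all, 4354 as reported, was 651 in day 158 hearts and 1720 to 5322 with single hearts left out. Myh11 (0.0145) was -0.0211 with median-of-ratios scaling, -0.17 in day 158 hearts and -0.1878 to 0.2168 with single hearts left out. Lmod1 (-0.0308) was 0.0026 scaled without mitochondrial and top genes, 0.0482 with the replicate block, 0.039 in day 158 hearts and -0.0949 to 0.0273 with single hearts left out. Myocd (-0.0765) was 0.0731 with equal summed FPKM, 0.144 with the replicate block and -0.1547 to 0.0017 with single hearts left out. Mkl1 (-0.059) was 0.062 with equal summed FPKM. By day, the number of members higher, 1 as reported, was 0 with equal summed FPKM, 2 scaled without mitochondrial and top genes, 0 without transgenic vehicle heart 3 and JIB-04 heart 2 and 0 to 1 with single hearts left out. The number of genes called in all, 51 as reported, was 23 without a filter, 174 scaled without mitochondrial and top genes, 20 without transgenic vehicle heart 3 and JIB-04 heart 2 and 9 to 287 with single hearts left out. Acta2 (-0.0777) was 0.0256 scaled without mitochondrial and top genes, 0.44 without transgenic vehicle heart 3 and JIB-04 heart 2 and -0.3148 to 0.442 with single hearts left out. Cnn1 (-0.0107) was 0.0051 with 0.1 added, 0.0085 with median-of-ratios scaling, 0.0367 scaled without mitochondrial and top genes, 0.1127 without transgenic vehicle heart 3 and JIB-04 heart 2 and -0.091 to 0.1115 with single hearts left out. Mkl1 (0.018) was -0.0424 with equal summed FPKM and -0.0438 to 0.1473 with single hearts left out. For the day-dependent effect, the number of genes called in all, 1 as reported, was 0 with 0.1 added, 186 without a filter, 0 with a filter of 5 FPKM and 6 with equal summed FPKM. Myh11 (0.089) was -0.0016 scaled without mitochondrial and top genes. Smtn (0.0765) was -0.0485 with equal summed FPKM and -0.0374 scaled without mitochondrial and top genes. The members in the heart order of Acta2 numbered 1 with a filter of 5 FPKM, where fewer genes were tested.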
